A study of Mus musculus with 8 samples.

Results

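The CDK inhibitors and the p53 axis are described here through 10 genes, chosen by symbol and all measured, of 22840 genes in the comparison. They are the CIP/KIP inhibitors Cdkn1a, Cdkn1b and Cdkn1c, the INK4 inhibitors Cdkn2a, Cdkn2b, Cdkn2c and Cdkn2d, the tumour suppressor gene Trp53, and 2 of its targets, Mdm2 and Ccng1. Each was represented by 1 probe set whose annotation names that gene alone, although the annotation text of Mdm2 is cut short, so whether it lists a further gene is not known. The samples were 8 MT-ret tumours, grown in C57BL/6N hosts from tumour fragments implanted at the ventral flank. In 4 of the hosts an Ang2-blocking antibody (anti-Ang2) was used, and the other 4 received the isotype control antibody (IgG). Ang2 is a secreted ligand of Tie2, a receptor of endothelial cells. Every tumour carried the MT-ret transgene, a Ret oncogene driven by a metallothionein promoter that gives rise to melanoma. Antibody was given from day 7 after implantation until the primary tumour was removed, and the age of the mice is not given in the labels. RNA came from whole tumour tissue, so host vessels, immune cells, fibroblasts and muscle could be in a sample along with the melanoma cells. The labels do not say whether the fragments came from separate donor tumours, so p-values measure the spread between these 8 samples.

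Cyclin-dependent kinases (CDKs) drive the cell through its division cycle, and the inhibitors hold them back. INK4 proteins bind CDK4 and CDK6 and keep them from D-type cyclins, whereas CIP/KIP proteins bind complexes of cyclin and kinase and act most strongly on those of CDK2. The transcription factor p53, made by Trp53, is kept low by the ubiquitin ligase Mdm2. When DNA damage or oncogene activity releases it, p53 raises Cdkn1a and also Mdm2 and Ccng1, so that it induces its own inhibitor. In melanoma the locus of Cdkn2a and Cdkn2b is known as a frequent site of loss.

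All values are log2 of the deposited intensity, and all differences are anti-Ang2 minus IgG on that scale. The medians of the arrays lay between 6.09 and 6.15. Their number, 4 per group, limits the precision: over all genes, the standard error (SE) of a difference had a median of 0.108. All 10 melanocytic markers had means between 6.35 and 13.6. The skeletal muscle markers (14 of 14 measured) varied most of the marker lists. Relative to the mean of all arrays, IgG replicate 1 had a mean of 2.39 and IgG replicate 2 of 0.90, while the other 6 arrays ran from -1.14 to 0.35.

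No member passed the threshold of a limma adjusted p of 0.05 over all 22840 genes, where 0% of all genes did so, and 2 members, Cdkn1a and Cdkn1b, had an unadjusted limma p under 0.05. Both stood higher in anti-Ang2 tumours. The background of that count was 7.09% of all genes in either direction, 4.09% higher and 3% lower. Differences were positive for 8 members and negative for Cdkn2c and Cdkn2d, where 53.5% of all genes had a positive difference. The median difference was 0.08 over the members and 0.01 over all genes. The groups overlapped for all 10 members, against 3.74% of all genes (2.28% higher in anti-Ang2) whose groups did not overlap. In bulk tissue, fewer cells of a type and less RNA per cell cannot be told apart.

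**Figure D1:**
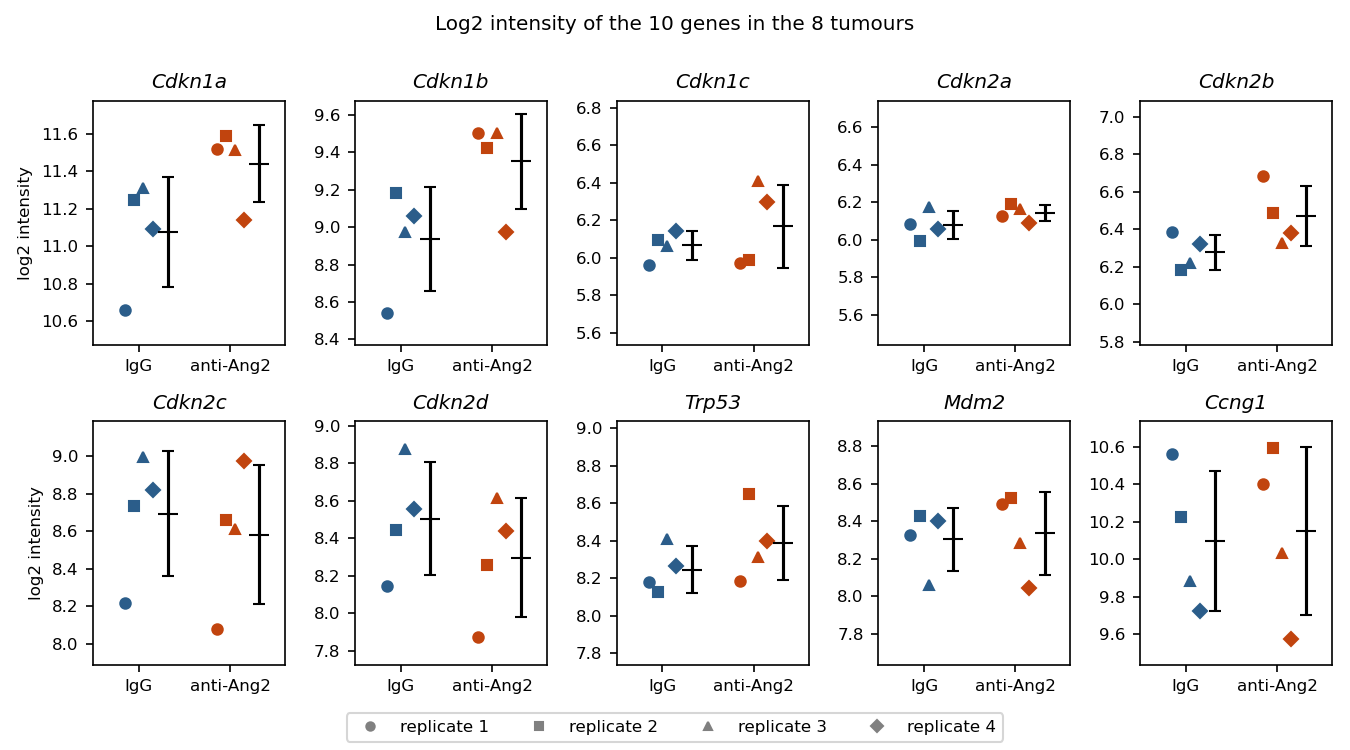
Log2 intensity (vertical axis, each panel spanning the same height) of the 10 genes in the 4 IgG (blue) and 4 anti-Ang2 tumours (orange), with marker shape for the replicate number and the mean ± SD in black. Cdkn1a and Cdkn1b have their lowest value in IgG replicate 1 and 3 high anti-Ang2 tumours, and Ccng1 covers a similar range in both groups.

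Cdkn1a encodes p21, the best known p53 target among the inhibitors. Its intensity was 11.52, 11.59, 11.51 and 11.14 in anti-Ang2 replicates 1 to 4, and 10.66, 11.25, 11.31 and 11.09 in IgG replicates 1 to 4. Thus 3 anti-Ang2 tumours lay above every IgG tumour, anti-Ang2 replicate 4 lay among the IgG values, and IgG replicate 1 stood below all others. The means were 11.44 ± 0.20 and 11.08 ± 0.29 (SD, n = 4 each). The difference was 0.36 (SE 0.15, 95% interval 0.03 to 0.70), a fold of 1.29. It did not pass correction over all genes (limma adjusted p = 0.693, unadjusted p = 0.0358), and the two-sided exact permutation p was 0.0857, where 0.0286 is the smallest possible.

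Cdkn1b encodes p27, the inhibitor that holds resting cells out of the cycle and that the ubiquitin ligase subunit Skp2 marks for breakdown. It read 9.50, 9.42, 9.50 and 8.97 in anti-Ang2 replicates 1 to 4, and 8.54, 9.18, 8.97 and 9.06 in IgG replicates 1 to 4. The layout was that of Cdkn1a: anti-Ang2 replicates 1, 2 and 3 above every IgG tumour, anti-Ang2 replicate 4 among them, and IgG replicate 1 lowest. Means of 9.35 ± 0.25 and 8.94 ± 0.28 (SD, n = 4 each) gave a difference of 0.41 (SE 0.16, 95% interval 0.06 to 0.76) and a fold of 1.33. This too failed correction (limma adjusted p = 0.685, unadjusted p = 0.0244; two-sided exact permutation p = 0.0857). In the authors' deposited table the ratio was 1.28 with p = 0.0722 for Cdkn1a and 1.33 with p = 0.0591 for Cdkn1b.

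Single arrays weighed on both values. Without IgG replicate 1 the difference of Cdkn1a was 0.22 and that of Cdkn1b 0.28, and no member then had an unadjusted limma p under 0.05. Without anti-Ang2 replicate 4 they were 0.46 and 0.54. The groups then did not overlap for either gene, which follows from leaving out the only anti-Ang2 tumour among the IgG values. The share of all genes without overlap was not computed with that array left out. Over all alternatives the limma adjusted p ran from 0.452 to 0.951 for Cdkn1a and from 0.411 to 0.951 for Cdkn1b. The count of members under 0.05 was also 0 without anti-Ang2 replicate 1 or 2. It was 1 without anti-Ang2 replicate 3, where the gene was Cdkn2b, and 1 without IgG replicate 4, where it was Cdkn1b. The share of all genes is not given beside these counts. Without IgG replicates 1 and 2, the arrays highest in skeletal muscle genes, a choice made after the values were seen, the differences were 0.24 and 0.33 and no member was under 0.05. All 14 skeletal muscle markers had a negative difference, with a median of -1.39 and 10 under an unadjusted limma p of 0.05, although 0 passed adjustment and the ranges of their mean overlapped between groups. The hypoxia markers differed the other way: 13 of 13 had a positive difference (median 0.47, 9 under an unadjusted limma p of 0.05, 0 after adjustment), and their mean relative to all arrays ran from 0.01 to 0.51 in anti-Ang2 and from -0.61 to -0.11 in IgG tumours, lowest in IgG replicate 1. Over all genes, 53.5% had a positive difference and 7.09% an unadjusted limma p under 0.05. Both lists were chosen with earlier results of these data known, so their counts are a description. The part of hypoxia or of muscle in the values of Cdkn1a and Cdkn1b was not tested.

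**Figure D2:**
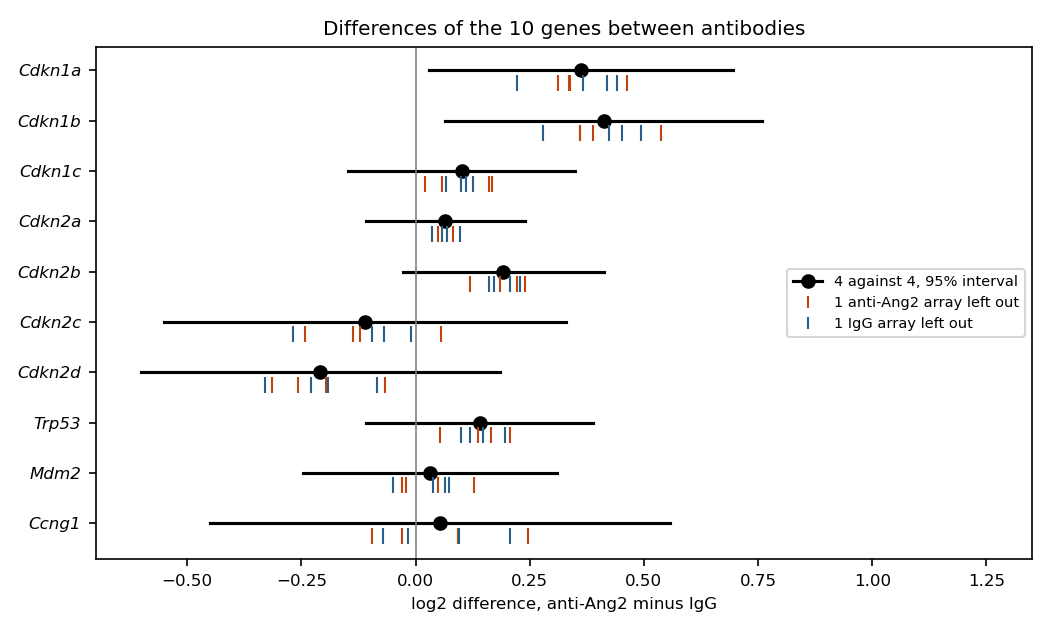
Log2 difference of each gene, anti-Ang2 minus IgG (horizontal axis), as the value over 4 against 4 tumours with its 95% interval (black) and, below it, the 8 values with 1 array left out (orange, an anti-Ang2 array; blue, an IgG array). The intervals of Cdkn1a (0.03 to 0.70) and Cdkn1b (0.06 to 0.76) lie above 0, and the other 8 contain it.

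The promoters of these 2 genes are shown because their intensities followed each other most closely of all member pairs (below). They run from 250 bases before to 50 bases after the start site, 5′ to 3′, and are taken from RefSeq on GRCm38.p6, in which Cdkn1a has 2 listed starts, at chr17:29090729-29091028 (upstream) and chr17:29093519-29093818 (downstream), and Cdkn1b 1, at chr6:134920151-134920450, all on the plus strand. Capitals mark GC boxes, spelled GGGCGG, as well as CCAAT boxes and matches to the p53 decamer, each on either strand.
Cdkn1a upstream: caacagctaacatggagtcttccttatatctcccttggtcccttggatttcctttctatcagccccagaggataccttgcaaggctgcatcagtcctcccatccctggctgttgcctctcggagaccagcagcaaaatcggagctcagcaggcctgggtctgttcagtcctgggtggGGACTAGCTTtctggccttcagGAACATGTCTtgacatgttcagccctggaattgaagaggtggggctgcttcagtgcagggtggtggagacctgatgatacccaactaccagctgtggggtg
Cdkn1a downstream: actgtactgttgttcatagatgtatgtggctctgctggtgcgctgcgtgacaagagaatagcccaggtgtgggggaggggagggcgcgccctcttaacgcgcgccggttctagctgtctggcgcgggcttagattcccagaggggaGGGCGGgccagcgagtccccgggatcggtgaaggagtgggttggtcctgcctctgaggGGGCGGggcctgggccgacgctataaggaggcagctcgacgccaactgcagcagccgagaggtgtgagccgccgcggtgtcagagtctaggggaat
Cdkn1b: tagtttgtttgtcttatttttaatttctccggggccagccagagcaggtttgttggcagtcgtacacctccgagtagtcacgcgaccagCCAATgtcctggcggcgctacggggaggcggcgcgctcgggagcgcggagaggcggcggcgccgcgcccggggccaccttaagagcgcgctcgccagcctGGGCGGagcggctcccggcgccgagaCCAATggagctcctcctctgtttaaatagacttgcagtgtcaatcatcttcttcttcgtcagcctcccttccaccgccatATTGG
The upstream Cdkn1a window held 2 p53 decamers, of which GAACATGTCT belongs to the well known p53 response element of this gene, and no GC box or CCAAT box. The downstream window held 2 GC boxes and no decamer, and that of Cdkn1b held 1 GC box, 3 CCAAT boxes and no decamer. Among all 32851 promoter windows of this length, 35.7% held a GC box, 37.4% a CCAAT box and 8.36% a p53 decamer. Letters in a window are a description and say nothing on whether a factor was bound.

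Cdkn1c, which encodes p57 and is expressed from the maternal allele in mice, was close to the median gene of the arrays, whose mean was 6.10. It read 5.97, 5.99, 6.41 and 6.30 in anti-Ang2 replicates 1 to 4 and 5.96, 6.09, 6.06 and 6.14 in IgG replicates 1 to 4. Anti-Ang2 replicates 3 and 4 lay above every IgG tumour, while replicates 1 and 2 lay near the lowest IgG value. The difference of 0.10 (95% interval -0.15 to 0.35) was within the spread between tumours (limma adjusted p = 0.886, two-sided exact permutation p = 0.4). It ran from 0.02 without anti-Ang2 replicate 3 to 0.17 without anti-Ang2 replicate 1.

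Of the INK4 genes, Cdkn2a and Cdkn2b are neighbours on chromosome 4, with 11669 bases between them (GRCm38.p6). Cdkn2a makes 2 unrelated proteins from different first exons, the CDK4 inhibitor p16 and Arf, which binds Mdm2 and so releases p53, and the single probe set cannot tell them apart. Its intensity was 6.13, 6.19, 6.16 and 6.09 in anti-Ang2 replicates 1 to 4 and 6.09, 5.99, 6.17 and 6.06 in IgG replicates 1 to 4. It had the narrowest range of the 10 members, 0.20 over all 8 tumours, near the level of the median gene. The difference was 0.06 (95% interval -0.11 to 0.24; limma adjusted p = 0.896), and 0.04 without IgG replicate 2. A change in a transcript that gives no more than background signal would not be detectable here.

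Cdkn2b, which encodes the TGF-beta-inducible inhibitor p15, read 6.68, 6.49, 6.32 and 6.38 in anti-Ang2 replicates 1 to 4 and 6.38, 6.18, 6.22 and 6.32 in IgG replicates 1 to 4. Anti-Ang2 replicates 1 and 2 stood above all IgG tumours, and the other anti-Ang2 values fell inside the IgG range. Its difference of 0.19 (95% interval -0.03 to 0.41, fold 1.14) was the third largest of the positive differences, after Cdkn1b and Cdkn1a, and was 0.12 without anti-Ang2 replicate 1. It did not pass (limma adjusted p = 0.740, unadjusted p = 0.0803; two-sided exact permutation p = 0.114).

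Cdkn2c (p18) and Cdkn2d (p19 of the INK4 family) were the members with negative differences. Cdkn2c read 8.08, 8.66, 8.61 and 8.98 in anti-Ang2 replicates 1 to 4 and 8.22, 8.74, 8.99 and 8.82 in IgG replicates 1 to 4. Its difference was -0.11 (95% interval -0.55 to 0.33; limma adjusted p = 0.937), and replicate 1 was the lowest of each group. Cdkn2d read 7.87, 8.26, 8.61 and 8.44 in anti-Ang2 replicates 1 to 4 and 8.14, 8.44, 8.88 and 8.56 in IgG replicates 1 to 4. Again replicate 1 was lowest in both groups, and the values of the groups interleaved. The difference of Cdkn2d was -0.21 (95% interval -0.60 to 0.18; limma adjusted p = 0.856, two-sided exact permutation p = 0.4). Single arrays moved it: it was -0.07 when anti-Ang2 replicate 1 was omitted and -0.31 when anti-Ang2 replicate 3 was. Omitting IgG replicate 1 gave -0.33, and omitting IgG replicate 3 gave -0.09.

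Trp53 itself read 8.19, 8.65, 8.31 and 8.40 in anti-Ang2 replicates 1 to 4 and 8.18, 8.13, 8.41 and 8.27 in IgG replicates 1 to 4. Anti-Ang2 replicate 2 was the highest tumour, and the other anti-Ang2 tumours lay within the range of the IgG group. The difference was 0.14 (95% interval -0.11 to 0.39, fold 1.10; limma adjusted p = 0.847), and it was 0.05 without anti-Ang2 replicate 2 and 0.21 without anti-Ang2 replicate 1. Since p53 is controlled mainly through the stability of the protein, the transcript does not measure p53 activity.

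Its targets Mdm2 and Ccng1 had the smallest differences of the 10 members. Mdm2, the ligase that degrades p53, read 8.49, 8.52, 8.28 and 8.04 in anti-Ang2 replicates 1 to 4 and 8.32, 8.43, 8.06 and 8.40 in IgG replicates 1 to 4, a difference of 0.03 (95% interval -0.25 to 0.31; limma adjusted p = 0.974). Ccng1, which encodes the atypical cyclin G1, read 10.40, 10.60, 10.04 and 9.58 in anti-Ang2 replicates 1 to 4 and 10.56, 10.23, 9.89 and 9.72 in IgG replicates 1 to 4. With a range of 1.02 over all tumours (2.03-fold) it varied most of the members, but did so alike in both groups. Its difference was 0.05 (95% interval -0.45 to 0.56; limma adjusted p = 0.976). Cdkn1a thus differed by 0.36 while the p53 targets Mdm2 and Ccng1 differed by 0.03 and 0.05, and a test of these differences against each other was not run.

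The spread of Ccng1 and Cdkn2c followed the tumour numbers in the labels, which were 2, 7 and 8 for anti-Ang2 replicate 4 and IgG replicates 3 and 4, and 13 to 21 for the others. What the numbers stand for is not given. Ccng1 was 9.58 to 9.89 in the 3 tumours numbered up to 10 and 10.04 to 10.60 in the 5 numbered above 10, with no overlap. Cdkn2c went the other way, at 8.82 to 8.99 in the former and 8.08 to 8.74 in the latter, again with no overlap. This split was seen in the data and is given without a test, and 4.24% of all genes did not overlap between these tumours. Within the tumours numbered above 10 (3 anti-Ang2 and 2 IgG) the difference between antibodies was 0.59 for Cdkn1a and 0.62 for Cdkn1b. Within those up to 10 (1 anti-Ang2 and 2 IgG) it was -0.06 and -0.04. With the tumour number as a block in limma, Cdkn1a differed by 0.35 and was no longer under an unadjusted p of 0.05, while Cdkn1b differed by 0.38 and was.

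Members varied together over the 8 tumours in a few pairs. Of the 45 pairs, 29 had a positive and 16 a negative correlation, 5 had an exact permutation p under 0.05 for Pearson's r, and 0 passed Benjamini-Hochberg adjustment over the 45. The closest pair was Cdkn1a and Cdkn1b, with Pearson's r = 0.943 (exact permutation p = 0.00198, adjusted p = 0.0893) and Spearman's rho = 0.738 (exact permutation p = 0.0458, adjusted p = 0.344). Without the 2 arrays farthest from the median of Cdkn1a (anti-Ang2 replicate 2 and IgG replicate 1) r was 0.867, and with values centred within each antibody group it was 0.901. It was 0.950 with values centred within the tumour number classes, and ranged from 0.871 to 0.981 with 1 array left out. When IgG replicate 1 was omitted, 1 pair passed the adjustment over the 45 pairs, Cdkn1b with Cdkn2c (exact permutation adjusted p = 0.0268). Their r was -0.106 over all 8 arrays and -0.827 without that array, so the relation rests on leaving out 1 tumour. With each of the other arrays left out in turn, the smallest exact permutation adjusted p over the pairs lay between 0.0774 and 0.232.

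Among the INK4 genes, Cdkn2c and Cdkn2d went together, and Cdkn2b ran against Cdkn2d. Cdkn2c and Cdkn2d had r = 0.851 (exact permutation p = 0.00667, adjusted p = 0.150) and rho = 0.690 (exact permutation p = 0.0694, adjusted p = 0.374). Without the 2 arrays farthest from the median of Cdkn2c, anti-Ang2 replicate 1 and IgG replicate 1, r was 0.481. The relation thus rests partly on those tumours. Cdkn2b and Cdkn2d had r = -0.830 (exact permutation p = 0.0125, adjusted p = 0.188) and rho = -0.810 (exact permutation p = 0.0218, adjusted p = 0.344). That r was -0.861 without anti-Ang2 replicate 1 and IgG replicate 2, and -0.838 with values centred within antibody groups. Cdkn2b and Cdkn2c had r = -0.696 (exact permutation p = 0.0541, adjusted p = 0.384) and rho = -0.667 (exact permutation p = 0.0831, adjusted p = 0.374). This r was -0.353 without anti-Ang2 replicate 1 and -0.422 without anti-Ang2 replicate 1 and IgG replicate 2, so it rests partly on anti-Ang2 replicate 1.

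**Figure D3:**
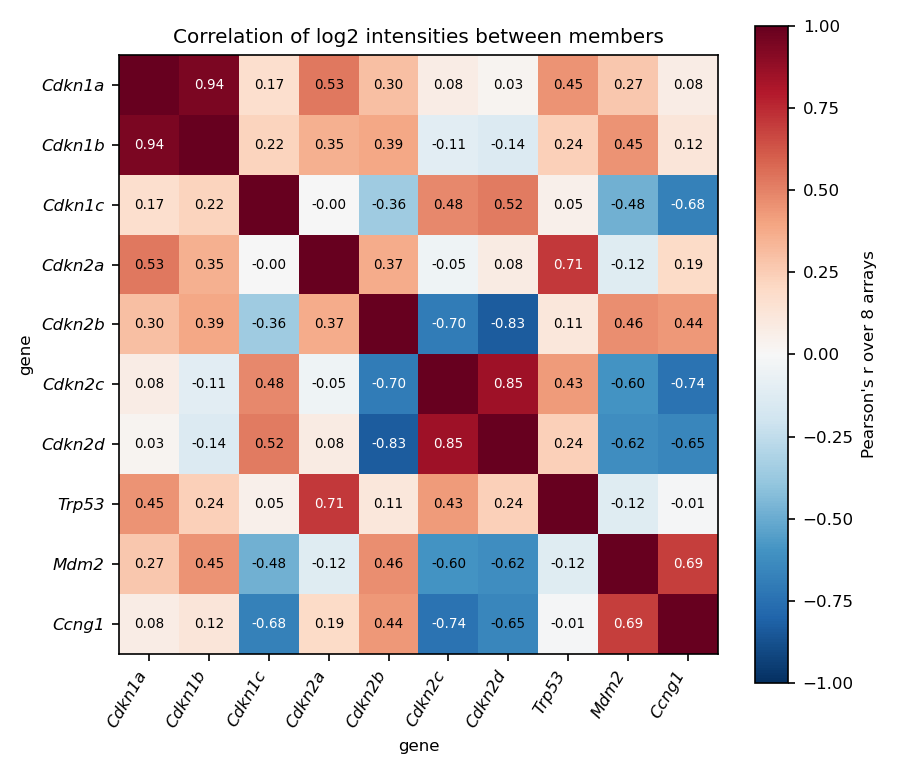
Pearson's r over the 8 arrays for each pair of the 10 genes (rows and columns; blue negative, red positive). The pair Cdkn1a and Cdkn1b is the closest at 0.94, Cdkn2c and Cdkn2d stand at 0.85, and Cdkn2b is negative with both (-0.70 and -0.83).

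The other pairs with p under 0.05 were Cdkn2c with Ccng1 (r = -0.740, exact permutation p = 0.0361, adjusted p = 0.384; rho = -0.714, exact permutation p = 0.0576, adjusted p = 0.370) and Cdkn2a with Trp53 (r = 0.709, exact permutation p = 0.0448, adjusted p = 0.384; rho = 0.833, exact permutation p = 0.0154, adjusted p = 0.344). Without the 2 arrays farthest from the median of the first gene they were -0.707 and 0.351. The relation of Cdkn2a and Trp53 thus rests partly on anti-Ang2 replicate 2 and IgG replicate 2. With 1 array left out, its r ran from 0.615 to 0.791. Cdkn2a spanned only 0.20 over all 8 tumours, near the level of the median gene, and its signal over background was not analysed. Centred within tumour number classes, the correlation of Cdkn2c with Ccng1 was -0.322. That split was seen in the data and separates both genes. Centring on it therefore takes out part of their spread and is no independent check of their correlations. The p53 targets Mdm2 and Ccng1 had r = 0.694 (exact permutation p = 0.0619, adjusted p = 0.384) and rho = 0.738 (exact permutation p = 0.0458, adjusted p = 0.344). That r was 0.360 without anti-Ang2 replicate 4 and IgG replicate 3 and 0.289 centred within tumour number classes. Cdkn1a, the other target among the members, had r = 0.27 with Mdm2 and 0.08 with Ccng1. The value with Ccng1 was set by single arrays: it was 0.827 without IgG replicate 1, -0.181 without anti-Ang2 replicate 2 and 0.742 without both.

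The promoters of Cdkn2c (first of 2 listed starts, chr4:109666707-109667006, minus strand) and Cdkn2d (chr9:21291160-21291459, minus strand) are shown as those of the second closest pair, with the same marking and from the same RefSeq build.
Cdkn2c: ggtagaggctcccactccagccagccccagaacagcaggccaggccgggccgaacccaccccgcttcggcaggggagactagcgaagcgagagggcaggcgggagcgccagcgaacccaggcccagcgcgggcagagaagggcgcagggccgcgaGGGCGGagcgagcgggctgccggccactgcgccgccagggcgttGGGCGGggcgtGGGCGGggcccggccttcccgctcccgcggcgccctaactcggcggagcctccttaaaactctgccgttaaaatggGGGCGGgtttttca
Cdkn2d: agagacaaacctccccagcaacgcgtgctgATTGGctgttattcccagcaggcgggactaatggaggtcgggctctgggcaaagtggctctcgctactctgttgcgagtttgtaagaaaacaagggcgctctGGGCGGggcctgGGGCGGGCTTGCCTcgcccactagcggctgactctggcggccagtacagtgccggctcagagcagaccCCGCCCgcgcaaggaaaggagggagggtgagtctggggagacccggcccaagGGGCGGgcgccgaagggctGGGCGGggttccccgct
The Cdkn2c window held 4 GC boxes and that of Cdkn2d 5, of which 1 overlaps a match to the p53 decamer. Of the 12 promoter windows that RefSeq lists for 9 members, 8 held a GC box, 7 a CCAAT box and 5 a p53 decamer. A HIF core, spelled ACGTG or with G in place of its A, was in 10 of the 12 and in 43.8% of all promoter windows. An E2F site (spelled TTTCCCGC, with C or G allowed at the 2 bases after TTT) was in 1, that of Cdkn2a, against 2.26% of all. The 12 windows ran from 44 to 77% G and C, where the median of all promoter windows was 52.7%. Windows of like base content were not compared, so these counts do not show an excess of any motif.

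Over arrays, the members were also set against the means of the 8 marker lists, a family of 80 relations added after the data were seen, of which 0 passed adjustment and 3 had an exact permutation p under 0.05. Cdkn1b followed the hypoxia list with r = 0.923 (exact permutation p = 0.00231, adjusted p = 0.146) and rho = 0.762 (exact permutation p = 0.0368, adjusted p = 0.694). Cdkn1a did so with r = 0.886 (exact permutation p = 0.00422, adjusted p = 0.146) and rho = 0.810 (exact permutation p = 0.0218, adjusted p = 0.694). Without anti-Ang2 replicate 1 and IgG replicate 1, r was 0.795 and 0.739, and centred within antibody groups it was 0.871 and 0.813. On that centred measure the macrophage list was about as close, at r = -0.861 with Cdkn1b and -0.907 with Cdkn1a. Over all arrays its r was -0.500 and -0.561, and without IgG replicate 1 it was 0.147 and 0.128. Without both anti-Ang2 replicate 4 and IgG replicate 1 it was 0.748 and 0.701. The negative r of the macrophage list over all arrays thus rests on IgG replicate 1. The fibroblast and matrix list had a centred r of -0.593 with Cdkn1b and -0.847 with Cdkn1a. Its r over all arrays was -0.312 and -0.524, and 0.145 and -0.188 without IgG replicate 1. The remaining relation of the 3 was that of Ccng1 with the T and NK cell list (r = 0.856, exact permutation p = 0.00548, adjusted p = 0.146; rho = 0.833, exact permutation p = 0.0154, adjusted p = 0.694; r = 0.851 without anti-Ang2 replicate 2 and IgG replicate 4). That list moved only from -0.06 to 0.08 around its mean, and its 9 measured markers had means of 5.39 to 6.17, near the lower end of the intensities.

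**Figure D4:**
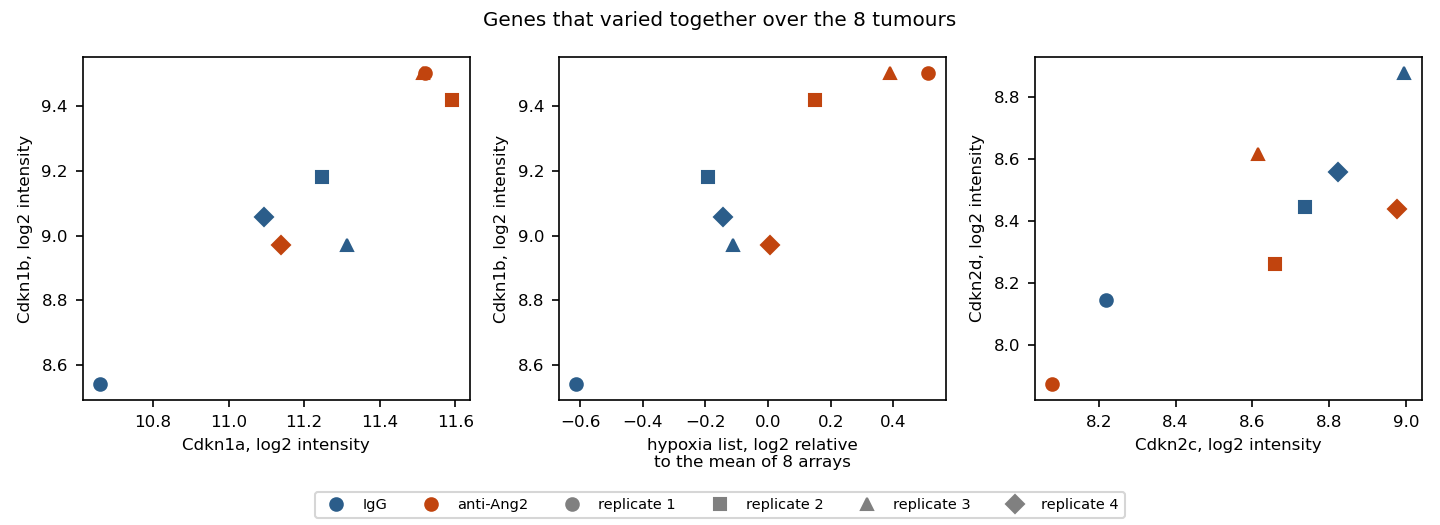
Each point is 1 tumour (orange, anti-Ang2; blue, IgG; shape, replicate number), plotted as Cdkn1b against Cdkn1a, Cdkn1b against the mean of the hypoxia list, and Cdkn2d against Cdkn2c, all on log2 axes. IgG replicate 1 is the low end of the first pair of plots, and the lowest points for Cdkn2c are anti-Ang2 replicate 1 and IgG replicate 1.

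The members that varied most over the 8 arrays were Ccng1 (SD 0.38), Cdkn2c (SD 0.33) and Cdkn1b (SD 0.33). Among 10768 genes above the median level, the nearest in pattern to Ccng1 were Rab13 (r = 0.976), Rpl17-ps9 (r = 0.959) and Rps12-ps24 (r = 0.944) over 8 arrays. The latter pair are ribosomal pseudogenes whose probes can share signal with their parent genes. Nearest to Cdkn2c were Kif20a, a mitotic kinesin (r = 0.978), Cipc, a circadian repressor (r = 0.968), and Srsf2, a splicing factor (r = 0.963). Nearest to Cdkn1b were Tcp11l2 (r = 0.975), Sap30, a subunit of a histone deacetylase complex (r = 0.973), and Siae, a sialic acid esterase (r = 0.962). These are the highest of many correlations over 8 shared arrays and carry no test.

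The surrounding pathway was read through 6 lists with 104 measured genes outside the 10 members. None passed the limma threshold over all genes, and 8 had an unadjusted limma p under 0.05, 6 higher and 2 lower in anti-Ang2 tumours, a share close to the 7.09% of all genes. Their median difference was -0.02. Of 32 p53 targets other than the members, 16 had a positive and 16 a negative difference, with a median of 0.00. Under an unadjusted p of 0.05 were Sertad1, a regulator of CDK4 and of transcription (0.36, SE 0.12), Sesn2, a stress-induced inhibitor of mTORC1 signalling (0.29, SE 0.10), Ercc5, an endonuclease of nucleotide excision repair (0.24, SE 0.09), and Tigar, a regulator of glycolysis (-0.20, SE 0.09). Limma adjusted p-values of these 4 were 0.641, 0.654, 0.689 and 0.701. The groups did not overlap for Sesn2 alone of these 32, where 3.74% of all genes did not overlap.

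Of 15 genes that regulate p53 or signal damage to it, 7 were positive and 8 negative, and none had an unadjusted p under 0.05. Those of smallest p were Hipk2, a kinase that phosphorylates p53 (-0.29, SE 0.15), Usp7, a deubiquitinase of Mdm2 and p53 (0.12, SE 0.08), the damage kinase gene Atm (0.11, SE 0.08) and the acetyltransferase gene Kat5 (0.15, SE 0.12). The list of CDKs and their cyclins had 4 positive and 8 negative members of 12, again with none under 0.05. Its nearest were Ccnd2, a D-type cyclin (0.19, SE 0.13), Cdk6, a target of the INK4 proteins (0.25, SE 0.18), Ccne1, a cyclin of CDK2 (0.13, SE 0.12), and Ccnd3 (-0.10, SE 0.09). Cdk4 shared its probe set with a second symbol and was not analysed here.

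Of 13 pocket protein and E2F genes, Rb1, the retinoblastoma protein that CDK4 and CDK6 inactivate, was the 1 member with an unadjusted p under 0.05 (0.42, SE 0.17, limma adjusted p = 0.690). Its mean was 9.78 ± 0.14 with anti-Ang2 and 9.36 ± 0.39 with IgG (SD, n = 4 each). IgG replicate 1 was again lowest, at 8.79 against 9.49 to 9.67 in the other IgG tumours, and without it the difference was 0.22 and no longer under 0.05. The E2F transcription factor genes E2f4 (-0.23), E2f1 (-0.19) and E2f6 (-0.13) came next by p. Of the 8 pathway genes under 0.05, Sertad1, Sesn2, Ccng2 and Ets1 stayed there with each array left out in turn, while Ercc5, Tigar, Birc5 and Rb1 each lost it without some array. As these 8 were picked by p over the same arrays, this describes them and is no further test. Among 17 regulators of the inhibitors, 9 were positive and 8 negative. Ccng2, a cyclin G gene related to Ccng1, differed by 0.58 (SE 0.13, limma adjusted p = 0.446) and Ets1, a transcription factor known to activate Cdkn2a, by 0.55 (SE 0.15, limma adjusted p = 0.546), and the groups did not overlap for either. Id1, which counters Ets factors at Cdkn2a, differed by -0.40 (SE 0.19), and Foxo1, a transcription factor known to raise Cdkn1b, by 0.24 (SE 0.13).

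Proliferation genes were split 8 positive to 7 negative with a median of 0.00. Birc5, survivin, had a difference of -0.29 (SE 0.10, limma adjusted p = 0.668) with no overlap between groups, and was the 1 of 15 with an unadjusted p under 0.05. Pcna, the sliding clamp of DNA replication, differed by -0.16 (SE 0.10), the mitotic kinase gene Aurka by 0.11 (SE 0.11) and Aurkb by -0.14 (SE 0.14).

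**Figure D5:**
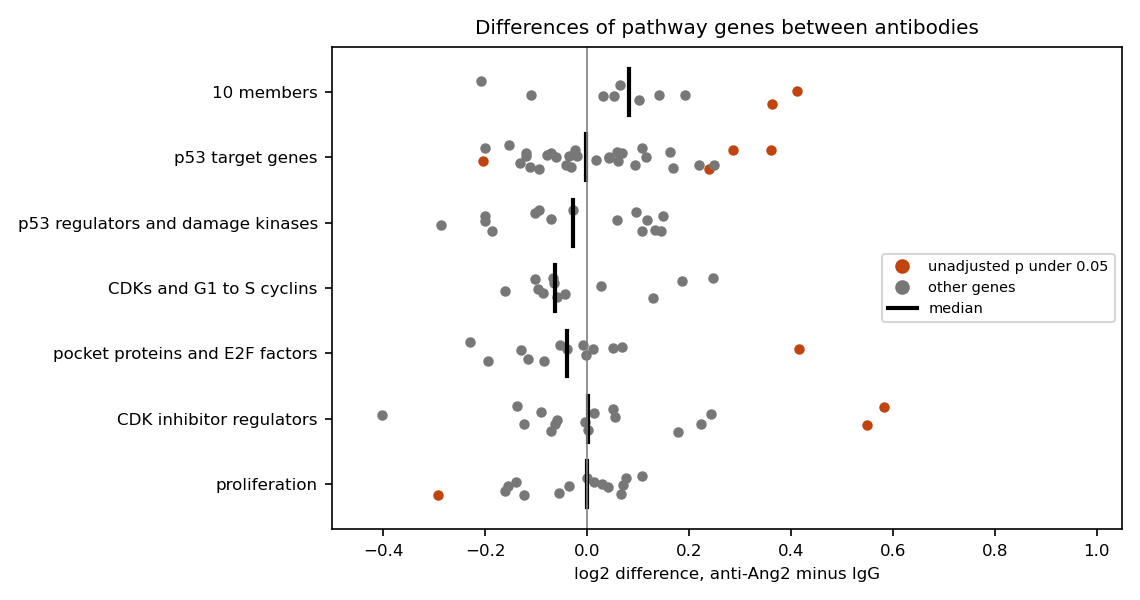
Log2 difference, anti-Ang2 minus IgG (horizontal axis), of the 10 members and of each measured gene of the 6 pathway lists (1 point per gene, orange where the unadjusted limma p is under 0.05, black bar the median). The list medians lie between -0.06 and 0.00, and that of the members at 0.08.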

How the data were processed

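Each of the 8 tumours was hybridised to 1 Affymetrix whole-transcript array from 250 ng total RNA, per the labels' protocols. The intensity that the authors deposited for each probe set is linear and already normalized, by a method not given in the sources used here. Their deposited ratio divides the anti-Ang2 mean by the IgG mean, and their deposited p-value matched Welch's test on linear intensities to within 1e-06 for all 22840 genes. Log2 was taken with no pseudocount. Of 24648 probe sets, 5 had missing values and 1385 several symbols, and these were left out, as were those that name no gene. Symbols were updated through Entrez IDs with RefSeq (21842 matched). Members were compared by limma 3.58.1 in R 4.3.3 (lmFit, eBayes, no covariate), fitted on 22840 genes, with Benjamini-Hochberg adjustment over all of them. Permutation tests ran over all 70 assignments of arrays to groups, and those of correlations over all orders of 8 arrays. The procedure was tested on simulated data.

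The members and lists were chosen with earlier results of these data known. Named genes are the 10 members, the 4 of smallest p in each of 6 pathway lists, and the 3 genes most like each of the 3 most variable members. Alternatives were other normalizations, filters, priors, weights, blocks, a test on linear intensities and each array left out. Promoters and motifs were read with Python 3.11.15, and figures drawn with matplotlib 3.10.9.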

Additional observations from a re-analysis of the deposited data

Results flagged for a closer look

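In Cdkn1a, anti-Ang2 replicate 4 (11.14 on the log2 scale) stood apart from the other anti-Ang2 tumours, which lay between 11.51 and 11.59. The gap to the nearest, relative to the group's range, was barely above Dixon's critical value. The same tumour stood apart in Cdkn1b, at 8.97 against 9.42 to 9.50 (0.841 of the range). In Ccng2, anti-Ang2 replicate 1 was high at 8.35, where the other anti-Ang2 tumours lay between 7.95 and 8.02 (0.834 of the range). These are 3 of 68 groups of 4 examined, and chance alone gives about 1 in 20.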

How the results depend on the processing

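No alternative brought a member past the adjusted threshold: the count was 0 at an adjusted p under 0.1 as well and in each alternative run. The count of members with an unadjusted p under 0.05, which was 2, was 1 with the tumour number as a block, 0 with Welch's test on linear intensities and 0 without the 2 IgG arrays highest in skeletal muscle genes. With 1 array left out it ranged from 0 to 2, the number of members without overlap from 0 to 2, and the number of adjusted member pairs from 0 to 1 (Cdkn1b with Cdkn2c, without IgG replicate 1). The shares of all genes under these alternatives are not given, so the counts of members lack a background there. Replicate numbers gave little sign of pairing: deviations of same-numbered tumours correlated at 0.061, -0.0539, 0.0688 and 0.0802. The same-numbered IgG tumour was the closest to anti-Ang2 replicates 1 and 4 but not to 2 and 3. Such low values do not exclude a pairing. With a replicate block 3 members were under 0.05 (Cdkn1a, Cdkn1b and Cdkn2d), again without the share of all genes beside them. The sign turned for 3 members, and the cause was not tested. With the tumour number block, Cdkn2c stood at 0.00693, Mdm2 at -0.0302 and Ccng1 at -0.113. With 1 array left out, Cdkn2c ranged from -0.269 to 0.0566 and was positive when anti-Ang2 replicate 1 was omitted. Mdm2 ranged from -0.0488 to 0.129, negative when anti-Ang2 replicate 1 or 2 or IgG replicate 3 was omitted. Ccng1 ranged from -0.0945 to 0.245, negative when anti-Ang2 replicate 1 or 2 or IgG replicate 3 or 4 was omitted. The other 7 members kept their sign in all 19 alternatives. Signal over background was not analysed here, and Cdkn1c, Cdkn2a and Cdkn2b lay near the level of the median gene, where small changes are hard to detect.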
